A study of Mus musculus with 40 samples.

Results

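Transcript levels of 8 genes used to describe how macrophages are polarized were followed in EMT-6 mammary tumors of mice given a TGF-beta trap, PD-L1 blockade, or both. The genes were the rows whose Ensembl mouse gene ID maps to Arg1, Chil3, Retnla, Mgl2, Ccl24, Nos2, Il10 and Il12b, and all 8 were found among the 39012 genes of the deposited tables. EMT-6 is a mouse mammary carcinoma line. Female Balb/C mice, 8 to 12 weeks old, carried tumors grown from 250000 cells placed with 0.1 mL of buffer in the right mammary pad. Treatment started 20 days after inoculation, when tumors measured about 400 mm3. The 10 mice of each group were dosed by vein on days 0, 1 and 2 of treatment, with tumor collection at day 6. The isotype control was an inactive version of the anti-PD-L1 antibody (400 ug). The trap control (492 ug) carried the TGF-beta trap on a mutated anti-PD-L1 arm. The anti-PD-L1 group received the antibody alone (400 ug), and the bifunctional group received anti-PD-L1 joined to the trap (492 ug). Each library is 1 bulk tumor, so a lower level of a transcript can mean fewer cells of a type or less RNA per cell, and these cannot be told apart here.

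Macrophages respond to the signals around them with contrasting programs. IL-4 and IL-13 act through STAT6 and raise Arg1, the chitinase-like protein Chil3 (Ym1), the resistin-like protein Retnla (Fizz1), the lectin Mgl2 (CD301b) and the eosinophil-attracting chemokine Ccl24, a pattern called alternative activation. Interferon-gamma and microbial products raise Nos2 and Il12b, the classical pattern. Arg1 and Nos2 are enzymes that consume the same amino acid, arginine, one to make ornithine and the other nitric oxide. Il10 encodes a cytokine that restrains inflammatory gene expression, and Il12b the p40 subunit shared by IL-12 and IL-23. TGF-beta, the ligand caught by the trap, is itself a regulator of macrophages, and tumor macrophages often show both patterns at once.

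The libraries fall into 2 runs of library numbers that differ in composition, and they were kept apart. The first set (C0449 to C0464) holds the 10 isotype control tumors and 6 trap control tumors, and the second (C0465 to C0488) holds 4 trap control, 10 anti-PD-L1 and 10 bifunctional tumors. Total counts ran from 13495835 to 25108601 in the first set and from 21987948 to 27658263 in the second. Structural RNAs took 29.66% to 62.32% of counts in the first set and 11.73% to 18.0% in the second. Vim was at 89.5 to 412 TPM in the first set and 498 to 1160 TPM in the second. Krt8 was at 6.67 to 40.3 TPM in the first and 56.4 to 166 TPM in the second. Epcam was low in both sets (0.05 to 0.49 and 0.22 to 7.52 TPM), and all 15 macrophage markers on a fixed list had counts in every group. The bifunctional libraries C0479 and C0484 stood apart in tissue markers: 7 skeletal muscle markers summed to 1820 and 3580 CPM there, against a group median of 6.37. The highest muscle sum of all libraries, 5400 CPM, was in the trap control tumor C0463 of the first set, against a group median of 0.697. Results that rest on C0479 and C0484 are given with and without them.

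Arg1 dominated the set of genes. On the TPM scale, which divides by transcript length and allows genes to be set against each other, the mean level over the 24 libraries of the second set was 28.6 ± 13.1 TPM (SD) for Arg1 and 1.09 ± 0.891 for Nos2. Mgl2 followed at 0.629 ± 0.689, Ccl24 at 0.482 ± 0.612 and Chil3 at 0.311 ± 0.26 TPM. Retnla (0.15 ± 0.244), Il10 (0.0846 ± 0.0702) and Il12b (0.065 ± 0.0461) were the lowest. Arg1 exceeded Nos2 in 24 of 24 libraries and their ranges did not overlap, whereas every other pair of neighbours in this order overlapped. The first set had Arg1 (9.09 ± 2.96 TPM), Nos2 (0.397 ± 0.174) and Mgl2 (0.103 ± 0.0565) in the same first places over its 16 libraries. Retnla there amounted to 3 counts in all, in 3 of 16 libraries, which is at the limit of detection.

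Within each library set no polarization gene changed between treatments by edgeR's quasi-likelihood test at an adjusted p of 0.05. In the bifunctional tumors against anti-PD-L1, which shows what the trap added to PD-L1 blockade, 0 of 8 were called, while 25.6% of all genes tested were, 12.4% higher and 13.1% lower. No member had an unadjusted p under 0.05 in that comparison, and DESeq2 also called 0. In trap control against isotype control, 3 of the 8 had enough counts to be tested (Arg1, Mgl2 and Nos2) and 0 were called, 1 of them at an unadjusted p under 0.05, with a background of 7.34% of all genes. The 4 trap control tumors of the second set gave 0 of 8 against the bifunctional group (background 0.00637%) and 0 of 8 against anti-PD-L1 (background 0.0127%), with none at an unadjusted p under 0.05 in either and 0 by DESeq2 in each of these 3 comparisons. The median log2 change of the 8 genes between bifunctional and anti-PD-L1 tumors was 0.55, beside 0.01 over all genes, and without C0479 and C0484 it was -0.11 over the 6 still tested. Of the 95% intervals of single members in comparisons within a set, all but 1 included 0.

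**Figure D1:**
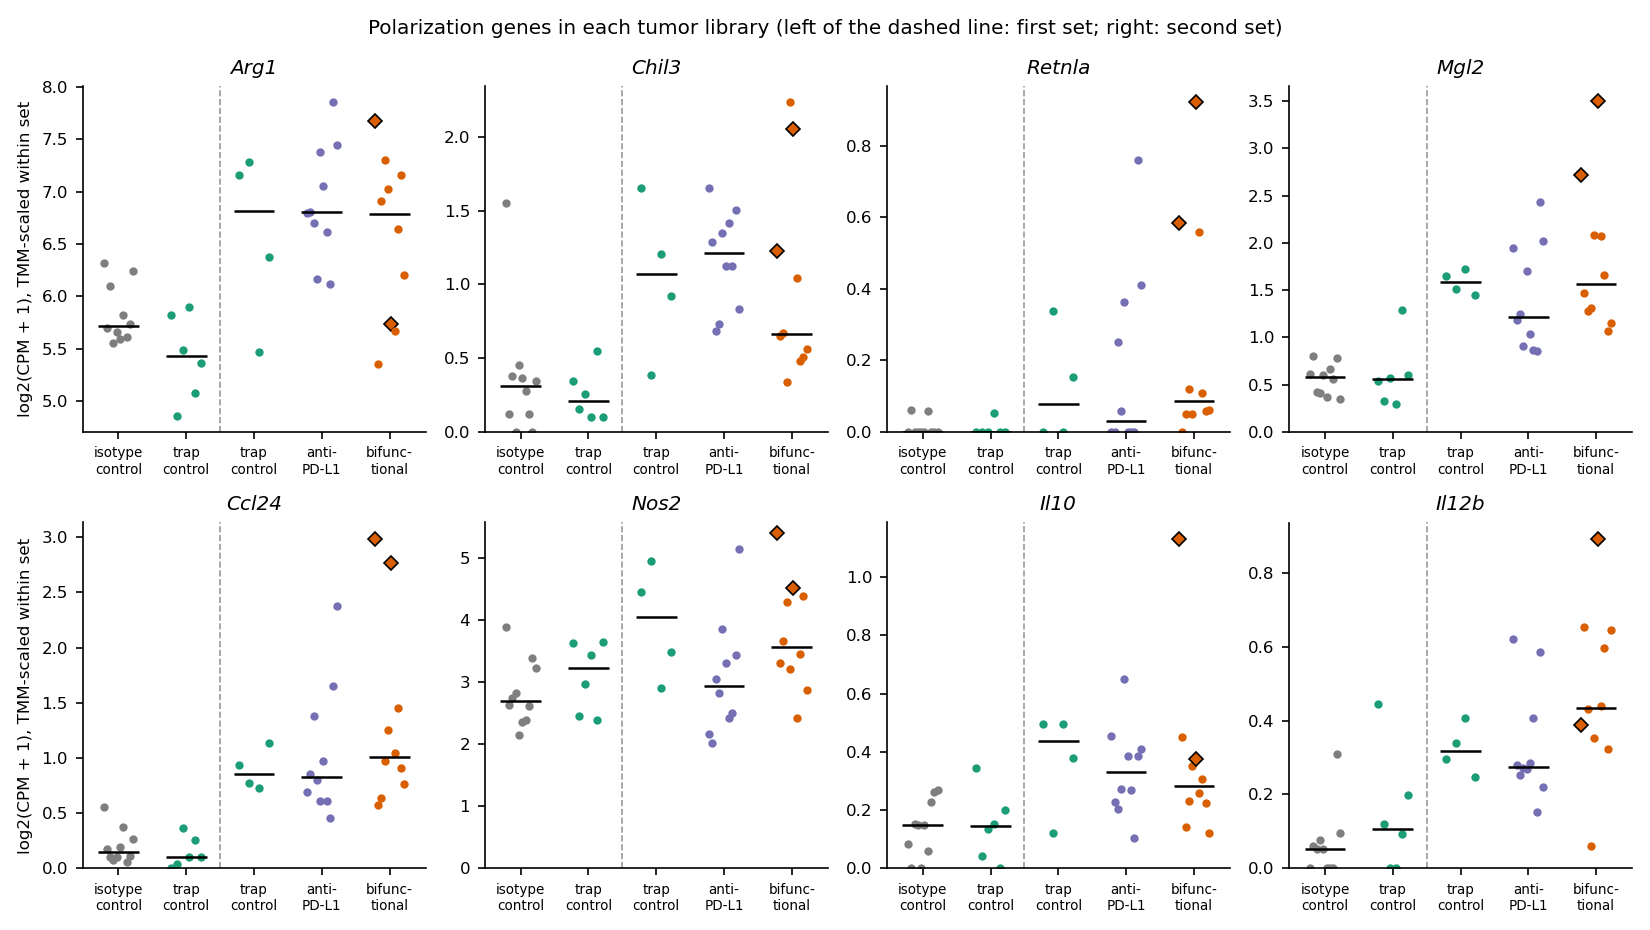
Level of each polarization gene in each tumor, as log2(CPM + 1) with scaling done within each library set; points are libraries, bars are group medians, and diamonds with black edges mark C0479 and C0484. Groups overlap for every gene within a set, and the diamonds hold the highest Arg1, Mgl2, Ccl24, Nos2, Il10, Retnla and Il12b values of the bifunctional group.

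Arg1 (chromosome 10, 24915221 to 24927484, minus strand, mm10) encodes arginase 1. In the first set it ran from 45.9 to 78.6 CPM in isotype control tumors, with a median of 51.6, and from 27.9 to 58.5 CPM in trap control tumors, with a median of 42.0. The ranges overlapped, and 2 of 6 trap control tumors lay above the isotype control median. The fitted log2 fold change was -0.40 (SE 0.163, 95% interval -0.74 to -0.06), with an unadjusted p of 0.0233 and an edgeR adjusted p of 0.127, and DESeq2 gave an adjusted p of 0.089. In the second set the 4 trap control tumors held 142, 155, 43.2 and 81.9 CPM. Anti-PD-L1 tumors ran from 68.4 to 231 CPM (median 110) and bifunctional tumors from 40 to 203 (median 109). All 3 groups overlapped, and the bifunctional tumors split evenly around the anti-PD-L1 median, 5 of 10 above it. Bifunctional against anti-PD-L1 gave -0.24 (SE 0.29, interval -0.84 to 0.35, edgeR adjusted p 0.542).

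Nos2 (chromosome 11, 78920787 to 78960254, plus strand) encodes inducible nitric oxide synthase, which draws on the same arginine. It ran from 3.44 to 13.8 CPM (median 5.45) in isotype control tumors and from 4.22 to 11.5 (median 8.33) in the trap control tumors beside them, a log2 fold change of 0.29 (SE 0.293, edgeR adjusted p 0.556). Trap control tumors of the second set held 20.8, 29.8, 6.46 and 10.1 CPM. Anti-PD-L1 tumors ran from 3.07 to 34.3 CPM with a median of 6.67, and bifunctional tumors from 4.34 to 41.2 with a median of 10.8. The bifunctional tumors lay above the anti-PD-L1 median in 8 of 10 cases, but the ranges overlapped across almost their whole length, with the anti-PD-L1 tumor C0478 at the top of its group. The log2 fold change was 0.66 (SE 0.439, interval -0.24 to 1.57, edgeR adjusted p 0.259). Without C0478 it was 1.15 with an adjusted p of 0.0318, and without C0479 and C0484 it was 0.21 with an adjusted p of 0.789.

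The balance of the enzymes, taken within each tumor, differed where their single levels did not pass. Arg1 over Nos2 was computed from TPM in each library with 0.1 TPM added to both. In the first set the ratio ran from 14.5 to 31 in isotype control tumors (median 22.2) and from 9.33 to 16.9 in trap control tumors (median 15.7). All 6 trap control tumors lay below the isotype control median. The mean log2 ratio was 3.8 ± 0.349 (SD, n = 6) against 4.46 ± 0.393 (n = 10), a difference of -0.664 (exact two-sided permutation p 0.00574, adjusted 0.0133 over 4 comparisons). In the second set the ratio ran from 15.2 to 74.3 in anti-PD-L1 tumors (median 38.4) and from 7.16 to 43.2 in bifunctional tumors (median 25.8), with 1 of 10 bifunctional tumors above the anti-PD-L1 median. The means were 4.43 ± 0.77 and 5.37 ± 0.678 on the log2 scale (n = 10 each), a difference of -0.938 (permutation p 0.00874, adjusted 0.0133). These 2 comparisons share no library. The 4 trap control tumors of the second set, at 20.0, 15.4, 17.7 and 22.3, all lay below the anti-PD-L1 median, with a mean log2 ratio of 4.22 ± 0.23 and a difference of -1.14 (exact permutation p 0.00999, adjusted 0.0133), a comparison that uses the same anti-PD-L1 tumors. The bifunctional and trap control groups differed by 0.204 (exact permutation p 0.599).

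**Figure D2:**
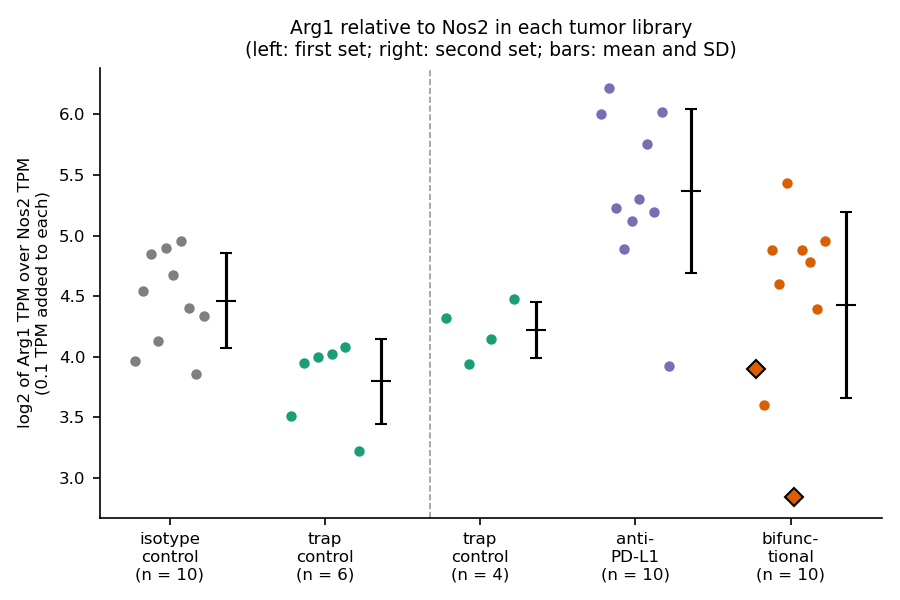
Log2 of Arg1 TPM over Nos2 TPM (0.1 TPM added to each) in each tumor; points are libraries, diamonds are C0479 and C0484, and the bars show the group mean and SD. All 6 trap control tumors of the first set and all 4 of the second lie below the median of the isotype control or anti-PD-L1 tumors of their own set, as do 9 of 10 bifunctional tumors.

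The lower Arg1 to Nos2 ratio in bifunctional tumors was -0.67 on the log2 scale without C0479 and C0484 (adjusted p 0.0492), near the threshold, and with 1 TPM added in place of 0.1 it was -0.47 and no longer passed (permutation test, adjusted p 0.0905). Nos2 averaged 1.09 TPM over the second set, close to that constant. Arg1 and Nos2 differ in length (1477 and 4192 bases in their longest transcripts). Genes of Arg1's length stood against genes of Nos2's length at 0.534 ± 0.0825 on the log2 TPM scale in anti-PD-L1 tumors and at 0.457 ± 0.0401 in bifunctional tumors. After this per-library value was subtracted the differences were -0.86 (bifunctional against anti-PD-L1, adjusted p 0.0168) and -0.70 (trap control against isotype control, exact permutation, adjusted p 0.00799). The 15 macrophage markers summed to 1600 to 2470 CPM in anti-PD-L1 tumors and 2020 to 3940 in bifunctional tumors, and to 656 to 997 and 555 to 1090 CPM in the isotype and trap control tumors of the first set. Neutrophil markers, from cells that can also hold Arg1 and Nos2, summed to 35.6 to 352 CPM (median 84.7) in anti-PD-L1 tumors. In bifunctional tumors they summed to 53.3 to 243 CPM (median 173), with Ly6g at 0. Mmp9 was the largest part of these sums, at 88 ± 88.1 CPM in anti-PD-L1 and 99.2 ± 61.3 CPM in bifunctional tumors. The mean log2(CPM + 1) of the neutrophil list was 1.99 ± 0.358 and 2.25 ± 0.286. The part of macrophages and neutrophils in the ratio was not tested.

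The next 4 genes are targets of IL-4 and IL-13. For Chil3, Retnla and Mgl2 the RefSeq promoter (250 bases before to 50 after the gene start, GRCm38.p6) is shown, since Mgl2 varied together with Chil3 among tumors and Retnla is a classical STAT6 target. Motifs of STAT6 type (TTC and GAA with 4 bases between), AP-1 (TGANTCA), the PU.1 core (GAGGAAG), C/EBP (TTGCNNAA) and the TATA box (TATAAA) were searched on both strands, and matches are in capitals.
Retnla: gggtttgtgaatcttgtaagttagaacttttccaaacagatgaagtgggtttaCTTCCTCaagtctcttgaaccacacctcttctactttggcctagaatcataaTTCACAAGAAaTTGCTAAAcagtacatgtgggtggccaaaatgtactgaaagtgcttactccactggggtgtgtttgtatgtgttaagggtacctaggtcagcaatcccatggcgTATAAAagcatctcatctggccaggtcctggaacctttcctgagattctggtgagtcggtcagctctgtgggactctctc
Chil3: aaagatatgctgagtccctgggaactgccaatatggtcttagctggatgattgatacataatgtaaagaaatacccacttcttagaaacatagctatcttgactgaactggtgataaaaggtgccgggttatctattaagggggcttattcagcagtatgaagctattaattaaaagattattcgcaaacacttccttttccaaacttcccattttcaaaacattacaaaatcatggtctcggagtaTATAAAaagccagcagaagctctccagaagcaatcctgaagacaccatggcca
Mgl2: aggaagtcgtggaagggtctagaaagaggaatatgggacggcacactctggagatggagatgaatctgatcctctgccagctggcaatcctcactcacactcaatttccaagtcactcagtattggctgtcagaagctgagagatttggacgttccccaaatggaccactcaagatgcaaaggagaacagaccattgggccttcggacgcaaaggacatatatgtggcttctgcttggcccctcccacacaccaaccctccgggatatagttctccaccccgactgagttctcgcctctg
The Retnla window (chr16:48842359-48842658, plus strand) held the STAT6-type match TTCACAAGAA starting 145 bases before the RefSeq start, a C/EBP match (TTGCTAAA) shortly after it, the PU.1 core on the other strand (CTTCCTC) and TATAAA 30 bases before that start. The RefSeq start (48842609) lies 58 bases inside the gene as GENCODE annotates it, and the offsets given here are from the RefSeq start. The Chil3 window (chr3:106167515-106167814, minus strand) held TATAAA beginning 3 bases before the annotated start, that is, across it. The Mgl2 window (chr11:70130107-70130406, plus strand) held none of the letters searched. A STAT6-type match occurs in 6.95% of 32851 promoters of this length, the C/EBP letters in 10.8%, and the PU.1 core and TATAAA in 13.6% each. A match describes letters only.

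Chil3 (chromosome 3, 106147554 to 106167564, minus strand), a secreted chitinase-like protein also made by monocytes, was low in the first set. It ran from 0 to 33 counts in isotype control tumors (median 4.5) and from 1 to 7 in trap control tumors (median 3.5), too few to be tested. In the second set the trap control tumors held 2.14, 0.309, 1.31 and 0.897 CPM. Anti-PD-L1 tumors ran from 0.61 to 2.15 CPM (median 1.32), and bifunctional tumors from 0.262 to 3.71 (median 0.582). Of the bifunctional tumors 3 of 10 lay above the anti-PD-L1 median, yet C0483 and C0484 were the highest tumors of all. The log2 fold change was -0.12 (SE 0.442, edgeR adjusted p 0.862), and -0.43 without C0479 and C0484 (adjusted p 0.568). Chil4, its near copy, had no count in any library other than 2 counts in C0449.

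Retnla (chromosome 16, 48842551 to 48844461, plus strand), a secreted resistin-like protein, was close to the limit of detection. In the second set the 4 trap control tumors held 0, 6, 0 and 3 counts. Anti-PD-L1 tumors ran from 0 to 18 counts with 5 of 10 at 0, and bifunctional tumors from 0 to 24 with 1 of 10 at 0. A count of 0 allows up to 0.136 CPM in the shallowest library of this set. The highest bifunctional value was in C0484 (24 counts, 0.892 CPM) and the highest anti-PD-L1 value in C0477 (18 counts). The groups overlapped, with a log2 fold change of 0.49 and an interval of -1.28 to 2.26 (edgeR adjusted p 0.683).

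Mgl2 (chromosome 11, 70130329 to 70137550, plus strand) encodes a galactose-binding lectin of macrophages and dendritic cells. In the first set isotype control tumors ran from 4 to 18 counts (0.272 to 0.741 CPM, median 0.493) and trap control tumors from 5 to 22 (0.224 to 1.45 CPM, median 0.469). The top value came from C0463, whose muscle markers summed to 5400 CPM. The log2 fold change was 0.15 (SE 0.375, edgeR adjusted p 0.835), and -0.39 without that tumor. In the second set the trap control tumors were close together at 2.14, 1.85, 2.29 and 1.72 CPM. Anti-PD-L1 tumors ran from 0.811 to 4.38 CPM (median 1.33) and bifunctional tumors from 1.09 to 10.3 (median 1.96). The bifunctional tumors were above the anti-PD-L1 median in 8 of 10 cases with overlapping ranges, and the fold was 0.75 (SE 0.401, interval -0.08 to 1.57, edgeR adjusted p 0.161). It was 0.08 (interval -0.59 to 0.75, adjusted p 0.902) without C0479 and C0484. Adipocyte markers summed to 1310 CPM in C0484, against a group median of 89.3. Clec10a, the neighbouring family member with which reads may be shared, had a mean of 7.63 ± 8.56 CPM in bifunctional and 3.60 ± 2.12 CPM in anti-PD-L1 tumors (1.08, SE 0.46, edgeR adjusted p 0.0802).

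Ccl24 (chromosome 5, 135569937 to 135573049, minus strand), or eotaxin-2, binds the receptor Ccr3. It held 1 to 8 counts in isotype control tumors and 0 to 6 in trap control tumors of the first set, under the limit for a test. Trap control tumors of the second set held 0.912, 0.706, 0.654 and 1.196 CPM. Anti-PD-L1 tumors ran from 0.369 to 4.19 CPM (median 0.778), and bifunctional tumors from 0.49 to 6.92 (median 1.01). The highest bifunctional values were those of C0479 (180 counts) and C0484 (156 counts), and the groups overlapped. The log2 fold change of 0.71 (SE 0.51, edgeR adjusted p 0.298) became -0.35 (interval -1.18 to 0.48, adjusted p 0.614) without these 2 libraries. Against the 4 trap control tumors the bifunctional group gave 1.24 (SE 0.725, edgeR adjusted p 0.389). Eosinophil markers, cells that Ccl24 attracts, summed to 0.39 to 2.01 CPM in bifunctional and 0.258 to 4.19 CPM in anti-PD-L1 tumors, with Epx at 0 in the former and Prg2 and Ear1 at 0 in the latter.

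**Figure D3:**
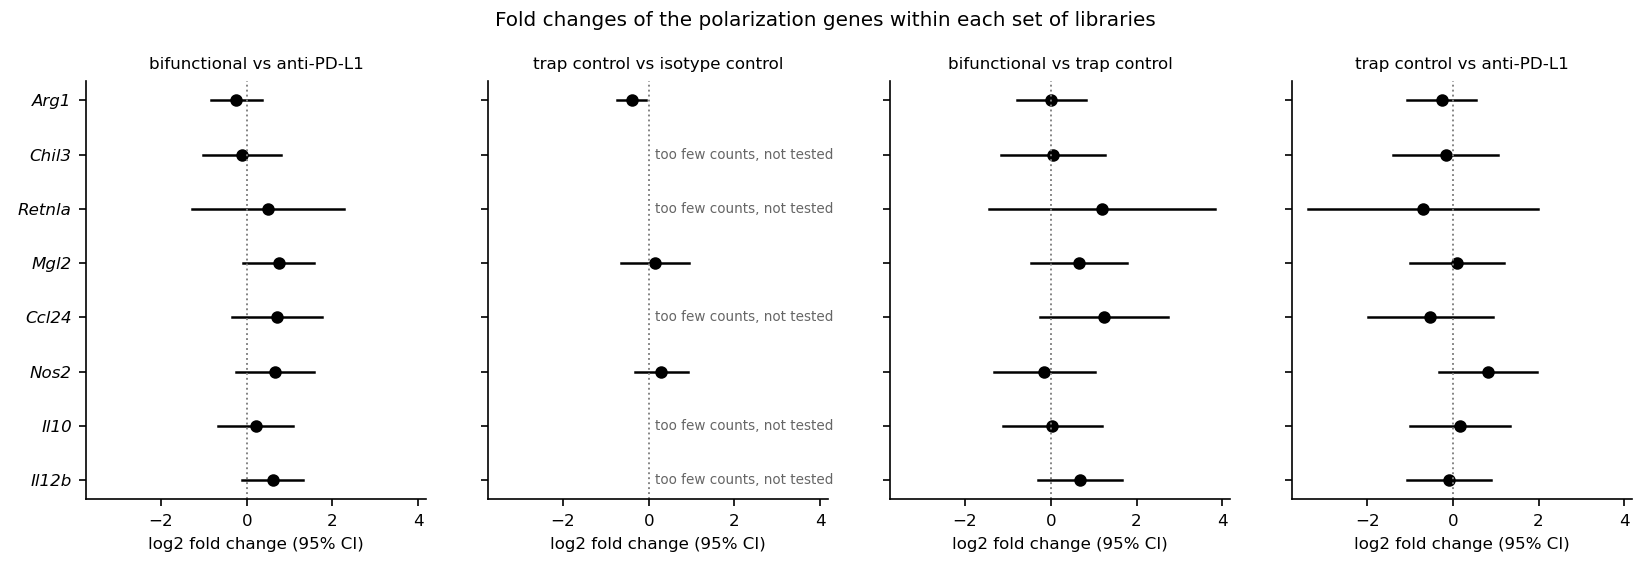
Log2 fold change (points) with 95% confidence interval (lines) of each polarization gene in the 4 comparisons made within a library set, from edgeR. Of the intervals drawn, the one for Arg1 in trap control against isotype control (-0.74 to -0.06) is the only one that does not reach 0, and its adjusted p is 0.127.

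The cytokines had the lowest mean TPM of the members in the second set. By median Retnla was lower, at 0.04 TPM against 0.07 for Il10 and 0.06 for Il12b. Il10 (chromosome 1, 131019845 to 131024974, plus strand) held 2, 9, 10 and 8 counts in the trap control tumors of the second set, from 2 to 14 in anti-PD-L1 tumors (median 6) and from 2 to 31 in bifunctional tumors (median 5.5). The top value was C0479 and all other bifunctional tumors lay within the anti-PD-L1 range. The log2 fold change was 0.21 (SE 0.425, edgeR adjusted p 0.731). Il12b (chromosome 11, 44400063 to 44414033, plus strand) held 5, 6, 8 and 5 counts in those trap control tumors, 3 to 13 in anti-PD-L1 tumors (median 5) and 1 to 23 in bifunctional tumors (median 9.5). In 9 of 10 bifunctional tumors it lay above the anti-PD-L1 median, C0482 being the exception. The ranges overlapped, the log2 fold change was 0.61 (SE 0.345, interval -0.11 to 1.32) and the edgeR adjusted p was 0.18. It was 0.47 without C0479 and C0484 (adjusted p 0.403), and 0.75 with an adjusted p at the threshold (0.05) without C0482. In the first set Il10 had at most 5 counts and Il12b at most 6 counts in a library. Of 6 other genes of the IL-12 and IL-10 families (Il12a, Il23a, Il27, Ebi3, Il19 and Il24), 2 had enough counts to be tested. Il24 was at 1.26 ± 1.83 CPM in bifunctional and 1.27 ± 0.728 CPM in anti-PD-L1 tumors, and Ebi3, the subunit IL-27 and IL-35 share, rose by 1.05 (SE 0.326, edgeR adjusted p 0.024) from 0.33 ± 0.19 to 0.687 ± 0.236 CPM, with an adjusted p of 0.0971 (0.92) without C0479 and C0484.

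The library sets were compared within 1 treatment. In the trap control group, the only treatment in both sets, 1 of 4 members tested was called, Ccl24, which was higher in the second set by a log2 value of 2.11 with an SE of 0.559 (edgeR adjusted p 0.00827), while 48.4% of all genes were called. Mgl2 differed by 1.06 (adjusted p 0.0643), Arg1 by 0.46 (0.26) and Nos2 by 0.24 (0.66). Comparisons with the isotype control for the groups of the second set therefore carry a set term estimated from the trap control tumors. With it, 0 of 5 members tested were called in bifunctional against isotype control (background 2.55%) and 0 of 5 in anti-PD-L1 against isotype control (background 0.0132%), with none at an unadjusted p under 0.05. Without the set term Mgl2 stood 1.92 and 1.11 higher on the log2 scale and Ccl24 2.97 and 2.19 higher, and edgeR called both, as it called 64.6% and 63.7% of all genes. The interaction test set the trap contrast with PD-L1 binding, from the second set, against the one without it, from the first. It gave 0 of 5 members (background 8.69%), the largest value being 1.21 for Ccl24 (SE 0.974, edgeR adjusted p 0.427). Each contrast lies in 1 set, and the set term does not separate them. A difference by this test therefore cannot tell PD-L1 binding from library set.

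The rest of the polarization program was read from lists of related genes. In bifunctional against anti-PD-L1 tumors, where 12.4% of all genes tested were called higher (1.87% without C0479 and C0484), 4 of 14 other alternative activation genes tested rose and none fell, with 0 of 13 called without these 2 libraries. The 4 were the nuclear receptor Pparg (1.37, SE 0.417), the transcription factor Irf4 (1.27, SE 0.403), the PD-1 ligand Pdcd1lg2 (0.82, SE 0.267) and the transglutaminase Tgm2 (0.27, SE 0.0947). Pparg went from 1.55 ± 0.606 to 4.01 ± 3.83 CPM; adipocytes also express it. The mannose receptor Mrc1 stood at 528 ± 281 against 347 ± 112 CPM (0.60, edgeR adjusted p 0.0664). Of 17 other classical activation genes tested 5 rose and none fell, with 1 of 17 called without the 2 libraries. The 5 were the formyl peptide receptor Fpr2 (0.72, SE 0.172), the transcription factor Irf5 (0.37, SE 0.103), and the chemokines Ccl5 (0.83, SE 0.259), Cxcl9 (1.25, SE 0.412) and Cxcl10 (0.70, SE 0.232), which attract T cells. The median change was 0.57 over the alternative list and 0.29 over the classical list, beside 0.01 over all genes.

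Of the receptors and transducers for IL-10, IL-12 and Ccl24, 4 of 7 rose, beside 12.4% of all genes, and 1 of 7 (Stat4) without C0479 and C0484. The 4 were Stat4 (0.96, SE 0.194), Il10ra (0.60, SE 0.161), Il10rb (0.34, SE 0.0949) and Il12rb2 (0.86, SE 0.282). Of the interferon-gamma and TLR input genes 4 of 10 rose (0 of 10 without the 2 libraries), among them Cd14, Ifngr2 and Ifngr1 (both 0.24). Of the IL-4 and IL-13 signalling genes 2 of 8 rose (0 of 8 without them), Il2rg (0.51, SE 0.16) and Jak3 (0.21, SE 0.076), both of which serve other cytokines too. In arginine metabolism the transporter Slc7a2 (0.89, SE 0.236) and the mitochondrial arginase Arg2 (0.67, SE 0.235) rose and the argininosuccinate lyase Asl fell (-0.31, SE 0.0961), with 3 of 11 called, beside 25.6% of all genes in either direction, and 0 of 11 without the 2 libraries. Ccl11 (eotaxin-1), a near relative of Ccl24, rose by 0.92 (SE 0.318), and stood at 0.51 (edgeR adjusted p 0.256) without them.

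**Figure D4:**
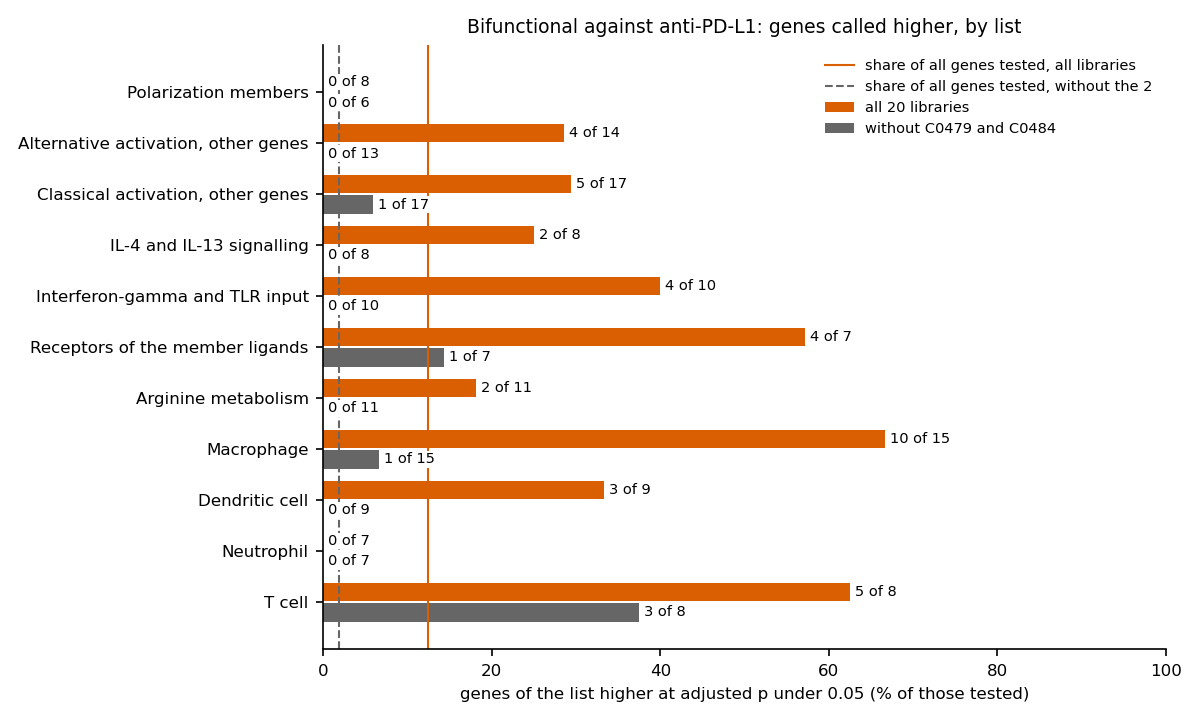
Share of each list called higher in bifunctional against anti-PD-L1 tumors (edgeR, adjusted p under 0.05), for all libraries (orange) and without C0479 and C0484 (grey); lines show the share of all genes tested, 12.4% and 1.87%. The 8 polarization genes have none called, while the macrophage markers go from 10 of 15 to 1 of 15 when the 2 libraries are left out.

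Macrophage markers moved with these lists. Of 15, 10 rose and none fell, including C1qb (0.70, SE 0.166; 127 ± 40.8 against 78.2 ± 15.9 CPM), C1qc (0.63, SE 0.16), Itgam (0.54, SE 0.136) and Aif1 (0.69, SE 0.194), with a median of 0.45. T cell markers rose in 5 of 8 cases (3 of 8 without C0479 and C0484) and dendritic cell markers in 3 of 9 (0 of 9 without them), beside 12.4% and 1.87% of all genes. The summed dendritic cell markers had a lower median in bifunctional (258 CPM) than in anti-PD-L1 tumors (290 CPM). Fscn1 made up most of that sum, with 227 ± 35.7 and 259 ± 23.4 CPM. The mean log2(CPM + 1) of the list went the other way, 2.57 ± 0.239 in bifunctional against 2.35 ± 0.108 in anti-PD-L1 tumors. Most calls were lost without C0479 and C0484: the alternative list then had 0 of 13, the classical list 1 of 17 (Fpr2, 0.53, edgeR adjusted p 0.0468), the receptors 1 of 7 (Stat4, 0.83, adjusted p 0.0231) and the macrophage markers 1 of 15, with 4.91% of all genes called. The macrophage median was still 0.33. With the macrophage marker score as a covariate the 8 members had a median of -0.10 and no list kept a call, with 4 genes of the whole table still called against 4014. The score is the mean of the same 15 markers, so the loss of their calls was close to fixed in advance. It also differed between the groups (6.6 ± 0.351 in bifunctional, 6.18 ± 0.205 in anti-PD-L1 tumors). This fit therefore cannot tell treatment from macrophage content.

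In the 2 comparisons with the 4 trap control tumors of the second set no list gene was called, and the median change of the 15 macrophage markers in bifunctional against trap control was 0.50, beside 0.03 over all genes. In trap control against isotype control the calls were few, a smaller share of the list genes tested than the 7.34% called over all genes. The IL-4 and IL-13 receptor chain Il13ra1 fell by 0.41 (SE 0.103, edgeR adjusted p 0.0309), with 33.8 ± 2.33 against 44.8 ± 7.83 CPM. The spermine synthase Sms fell by 0.33 (SE 0.073), and the TLR adaptor Myd88 (0.44, SE 0.128) and Stat3 (0.26, SE 0.0725) rose. Of the other alternative activation genes 0 of 11 were called there, of the classical genes 0 of 16 and of the macrophage markers 0 of 15. The interaction test, which cannot tell PD-L1 binding from library set, called 8.69% of all genes. Of all lists it called 7 genes: Slc7a2 (1.38, edgeR adjusted p 0.0148), the dendritic cell marker Fscn1 (-0.50), the regulatory T cell marker Il2ra (1.14), Asl (-0.48), Tlr4 (0.69), Il13ra1 (0.48) and Ifngr2 (0.35, adjusted p 0.0497). The lists hold 186 entries, not all of them tested, and the share of tested list genes called was below that 8.69%.

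Among tumors of a group, Arg1 and Nos2 varied together. After group means were subtracted, their log2(CPM + 1) levels correlated over the 24 libraries of the second set with r = 0.656 (permutation, adjusted p 0.0251 over 93 correlations) and rho = 0.673 (adjusted p 0.0162). The correlation was 0.614 without the 2 tumors farthest from the median of Arg1 and 0.702 without C0479 and C0484. Over the 16 libraries of the first set it was r = 0.728 (permutation, adjusted p 0.0375) and rho = 0.697 (adjusted p 0.0591), with r = 0.639 without the 2 farthest. Tumors with more arginase transcript tended to hold more Nos2 transcript. Arg1 gave no such relation with the macrophage markers that passed, with r = -0.0657 and rho = -0.0878 in the second set (adjusted p 0.857 and 0.875) and r = -0.121 and rho = -0.0706 in the first. That first-set relation depended on the unit: on the log2(TPM + 0.1) scale it was r = 0.531 and rho = 0.553.

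Mgl2 correlated with Ccl24 (r = 0.779, rho = 0.671, permutation adjusted p 0.0239 and 0.0282; r = 0.689 without the 2 farthest) and with Chil3 (r = 0.634, rho = 0.565, adjusted p 0.0393 and 0.0433; r = 0.541 without the 2 farthest), while Chil3 with Ccl24 did not pass (r = 0.303, rho = 0.217). In the first set, where Chil3 rests on a few counts, Chil3 with Mgl2 gave r = 0.184 and rho = 0.0809, and r = -0.31 without the 2 farthest. Ccl24 and Nos2 passed by r alone (0.64, adjusted p 0.027; rho 0.407, adjusted p 0.178), and Il10 passed by rho alone with Mgl2 (0.677, adjusted p 0.00744) and with Chil3 (0.603, adjusted p 0.0433). Of 21 pairs of members in the second set 4 passed by r and 5 by rho. Without C0479 and C0484 r was 0.626 for Mgl2 with Ccl24 and 0.5 for Mgl2 with Chil3. For Ccl24 with Nos2 it was 0.527, with a rho of 0.264. Mgl2 also followed the adipocyte markers (r = 0.73, rho = 0.675, adjusted p 0.00465 and 0.00744; r = 0.674 without the 2 farthest and 0.562 without C0479 and C0484; r = 0.253 and rho = 0.394 in the first set). Il10 followed the dendritic cell markers (r = 0.634, rho = 0.704, adjusted p 0.0281 and 0.0102; r = 0.515 without the 2 farthest) and the neutrophil markers (r = 0.547, rho = 0.583, adjusted p 0.0343 and 0.0433). In the first set Chil3 passed by r with the muscle markers (0.526, permutation adjusted p 0.0239; rho 0.408, adjusted p 0.224), with r = -0.09 without the 2 farthest. In the second set Il10 also passed with the T cell markers, by rho alone (0.657, permutation adjusted p 0.0162, with r = 0.541, adjusted p 0.13). By r alone the dendritic cell markers passed with Mgl2 (0.615, permutation adjusted p 0.0435) and with Il12b (0.631, adjusted p 0.0435). Without the 2 farthest these r values were 0.468 and 0.326, and without C0479 and C0484 they were 0.335 and 0.639. The levels compared share library scaling and, for Il10 and Il12b, rest on a few counts. With log2(TPM + 0.1) in place of CPM 13 of 93 correlations changed sign, 0 of them among those that passed, and rho moved by up to 0.81.

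**Figure D5:**
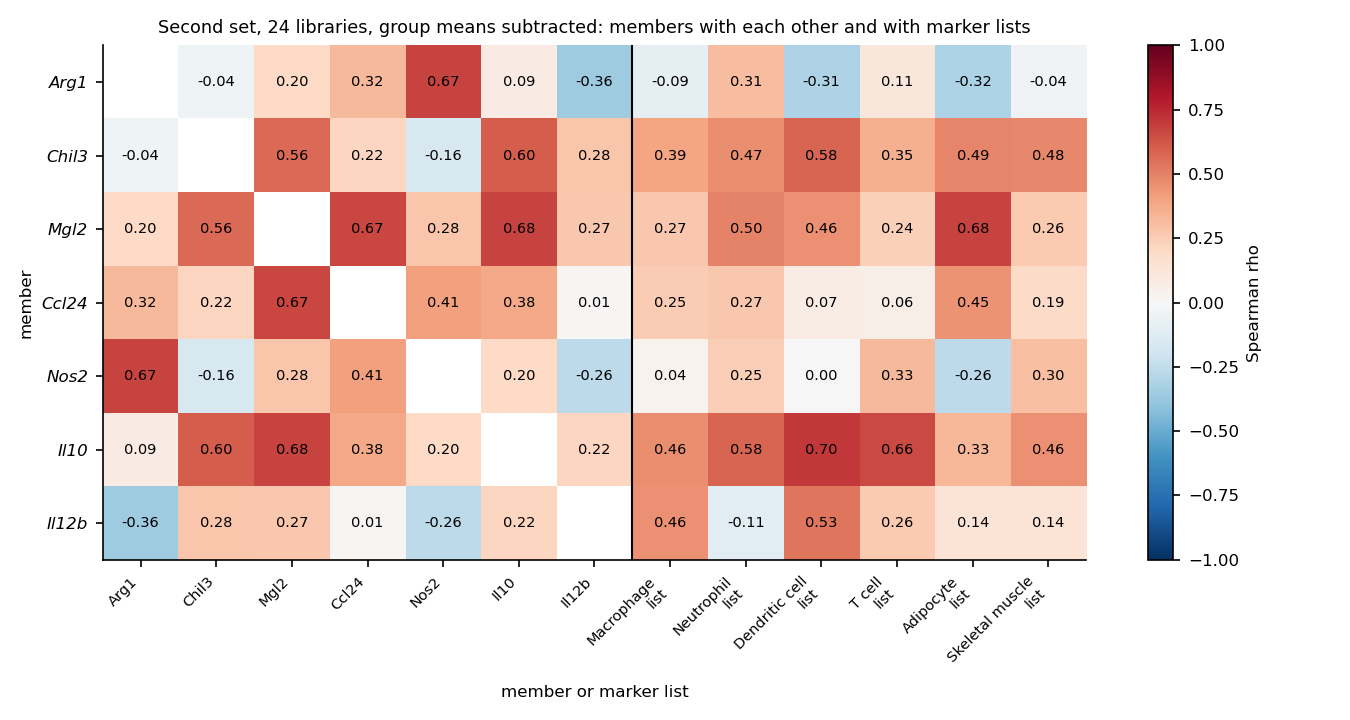
Spearman rho between members, and between members and the mean log2(CPM + 1) of marker lists, over the 24 libraries of the second set after group means were subtracted; red is positive and blue negative. Arg1 pairs with Nos2 (0.67) and Mgl2 with Ccl24 (0.67), while Arg1 has -0.09 with the macrophage list.

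The genes most like each member were taken as the 3 highest Spearman rho among 12261 genes over the same 24 libraries, after group means were subtracted. For Arg1 these were the chemokine Ccl3 (0.898), the cytokine Osm (0.876) and the macrophage metalloelastase Mmp12 (0.853). For Nos2 they were Serpinb2 (0.844), Smtnl2 (0.825) and the acute phase gene Saa3 (0.82). Ccl24 lay closest to Ednrb (0.877), Wfdc17 (0.861) and Fcgrt (0.856), Mgl2 to Mgst1 (0.856), Xpnpep2 (0.85) and Gpr146 (0.835), and Chil3 to Sfi1 (0.878), B3gnt5 (0.859) and Apol6 (0.852). No gene was among the 3 closest of 2 members. Without C0479 and C0484 the values ran from 0.694 (Ccl24 with Fcgrt) to 0.896 (Arg1 with Ccl3). Over the 16 libraries of the first set the values were lower for each, from -0.447 for Mgl2 with Mgst1 to 0.585 for Mgl2 with Gpr146. The genes were picked as the highest in the second set, so lower values in the first follow in part from the picking. Chil3 with Sfi1 (-0.0486) and Ccl24 with Fcgrt (-0.0794) were also below 0, and Arg1 had 0.0882 with Osm and 0.362 with Ccl3.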

How the data were processed

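RNA from 40 tumors, 1 library each, was sequenced after ribosomal depletion with random priming, per the labels' protocols. The authors deposited RSEM expected counts and TPM for 39012 genes; RSEM 1.2.31, Bowtie2 2.3.1 and the mm10 build appear in the submitters' processing notes. Annotation and strand are not given in the sources used here. Gene symbols and coordinates came from GENCODE M21 (37607 IDs, 96.4%) and promoters from RefSeq. Expected counts, 14.0% of them not whole, were rounded. No tumor of a group duplicated another (chi-square over its degrees of freedom 9.60 or more).

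Counts were tested with edgeR 4.0.16 (quasi-likelihood F test, two-sided, TMM scaling, default filter by group) within each library set, or over all libraries with a set term. P-values were adjusted by Benjamini-Hochberg over all genes at 0.05. Folds are log2 with SE; CPM is TMM-scaled within a set. Counts were also simulated for the real samples, with 200 changed genes drawn from all genes kept by the filter. Of log2 changes of 1, 81.2% were called in bifunctional against anti-PD-L1 (15563 genes), and 96% of changes of 2. Against the 4 trap control tumors 65.7% (bifunctional) and 68.7% (anti-PD-L1) of changes of 1 were called. Genes at the low levels of most members were not simulated apart, so these rates are not those of the members. The Arg1 to Nos2 ratio was tested by permutation (100000 resamples, exact under 10 per group). Correlations used log2(CPM + 1), permuted within groups. DESeq2 and limma on log2(TPM + 1) were alternatives. Named genes are all members, up to 4 per list by adjusted p (Cxcl10, Mrc1, Clec10a, Ccl11 and the list genes given beside them are added as context) and the 3 most like each member. The members and lists were chosen with earlier results of these data known, among them that C0479 and C0484 stand apart.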

Additional observations from a re-analysis of the deposited data

Results flagged for a closer look

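In each group of 4 to 10 tumors the most extreme tumor's gap to its neighbour was compared with the group's range on the log2(CPM + 1) scale. Of 40 groups 5 held a tumor standing apart. The rule's nominal rate of about 1 in 20 groups need not hold for groups near 0 counts. The groups also share tumors, so no excess is read from the 5. Chil3 was at 1.94 CPM (33 counts) in the isotype control tumor C0449, with the next tumor at 0.369 CPM. Mgl2 was at 1.45 CPM (22 counts) in the trap control tumor C0463, with the next at 0.518 CPM. Il10 was at 1.19 CPM (31 counts) in the bifunctional tumor C0479, with the next at 0.368 CPM. Il12b was at 0.24 CPM (6 counts) in the isotype control tumor C0457, with the next at 0.0681 CPM. Retnla was at 0.0374 CPM in the trap control tumor C0462, which is 1 count against 0 in the other 5. C0449, C0463 and C0479 also held high muscle marker sums (81.3, 5400 and 1820 CPM, against group medians of 0.722, 0.697 and 6.37), whose part in these values was not tested.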

How the results depend on the processing

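Among 332 values of members under other settings, 38 changed sign and 7 changed side of the threshold; of 610 with 1 library left out, 35 changed sign and 4 changed side. No value called in the reported fits changed sign. The cause of each change below was not tested. Values are log2 differences unless they count genes.

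In bifunctional against anti-PD-L1 the Arg1 to Nos2 ratio was -0.47 with 1 TPM added (permutation, adjusted p 0.0905). With the macrophage score as a covariate Ccl24 was -0.35 and Il10 -0.64. With the muscle, keratinocyte and adipocyte scores Retnla was -0.86, Mgl2 -0.04, Ccl24 -0.34 and Il10 -0.50. By limma on log2(TPM + 1) Chil3 was 0.04, and without C0479 and C0484 Ccl24 was -0.35. In trap control against isotype control Mgl2 was -0.10 with those 3 scores and -0.03 by limma on log2(TPM + 0.1). In bifunctional against trap control the macrophage score gave Chil3 -0.45, Mgl2 -0.17, Il10 -0.78 and Il12b 0.00. The 3 scores gave Chil3 -0.30 and Il10 -0.50; limma gave Nos2 0.02 and 0.01 with 1 and 0.1 TPM added, and Il10 0.00 with 0.1. Without C0479 and C0484 Arg1 was -0.06, Chil3 -0.29 and Mgl2 -0.04. In trap control against anti-PD-L1 Il12b was 0.01 with the macrophage score and 0.00 and 0.03 by limma, and the 3 scores gave Mgl2 -0.08 and Il10 0.00.

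Without the set term 2 members were called against isotype control in both the bifunctional and the anti-PD-L1 group, with Arg1 at 0.09 and 0.30 and Chil3 at 1.03 and 1.09, and the interaction gave Arg1 -0.01, Chil3 -0.29 and Ccl24 -0.14. Without C0479 and C0484 bifunctional against isotype control gave Ccl24 -0.26 and Nos2 -0.33, and the interaction Mgl2 -0.07 and Nos2 -0.09. Between sets 1 member was called, against 2 with no filter and 7 by limma on log2(TPM + 1).

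With 1 library left out, the ratio differed by -1.10 to -0.76 (bifunctional against anti-PD-L1), -0.73 to -0.55 (trap control against isotype control) and -1.30 to -1.05 (trap control against anti-PD-L1), with permutation adjusted p of at most 0.0373, and by 0.09 to 0.38 for bifunctional against trap control. Members called ran from 0 to 1 in bifunctional against anti-PD-L1 (Nos2 without C0478, Il12b at the threshold without C0482) and from 1 to 2 between sets (Mgl2 added without C0463, Arg1 without C0467). Ranges that crossed 0 were, in bifunctional against anti-PD-L1, Chil3 -0.47 to 0.02; in trap control against isotype control, Mgl2 -0.39 to 0.33; in bifunctional against trap control, Arg1 -0.25 to 0.26, Chil3 -0.32 to 0.52, Nos2 -0.46 to 0.28 and Il10 -0.25 to 0.23; in trap control against anti-PD-L1, Arg1 -0.49 to 0.01, Chil3 -0.63 to 0.17, Il10 -0.01 to 0.48 and Il12b -0.23 to 0.09; in bifunctional against isotype control, Nos2 -0.10 to 0.61; in anti-PD-L1 against isotype control, Arg1 -0.42 to 0.09, Mgl2 -0.49 to 0.24 and Ccl24 -0.52 to 0.38; and between sets Nos2 -0.19 to 0.52.

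Counts of all genes called moved more. In bifunctional against anti-PD-L1 4014 were called, against 4 with the macrophage score, 767 with the 3 scores, 1465 and 1451 by limma with 1 and 0.1 TPM, 760 without C0479 and C0484, and 2141 to 5242 with 1 library left out (2141 without C0479, 2172 without C0484). In trap control against isotype control 1041 were called, against 400 with no filter, 687 with the macrophage score, 82 with the 3 scores, 1692 by DESeq2, 0 by either limma fit, 1568 with all libraries, and 421 to 1381 with 1 left out. In bifunctional against trap control 1 was called, against 0 with no filter, with the 2 groups alone, with all libraries or without C0479 and C0484, 4 with the macrophage score, 9 with the 3 scores, 214 by DESeq2, and 0 to 176 with 1 left out. In trap control against anti-PD-L1 2 were called, 1 with all libraries, 0 with no filter, either set of scores, limma or the 2 groups alone, and 0 to 2 with 1 left out. Against isotype control the bifunctional group had 387 called, 9813 without the set term, 43 with no filter, 47 without C0479 and C0484, and 1 to 628 with 1 left out; anti-PD-L1 had 2, against 9664, 0 with no filter and 0 to 2. The interaction had 1320, against 3920 without the set term, 713 with no filter, 545 without C0479 and C0484, and 530 to 1758. Between sets 6997 were called, and 11272 by limma.

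No paired analysis was possible because the labels carry no replicate numbers that are shared between groups. Depth limits Retnla, Il10 and Il12b in both sets and Chil3, Mgl2 and Ccl24 in the first, where most libraries hold under 10 counts. The trap control group alone links the sets, with 4 tumors in the second.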
